A study of Mus musculus with 4 samples.

Results

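The adult alpha-globin genes Hba-a1 and Hba-a2, the adult beta-globin genes Hbb-b1, Hbb-b2, Hbb-bs and Hbb-bt, the red cell anion exchanger gene Slc4a1, the heme synthesis gene Alas2 and the metabolic enzyme gene Bpgm are described here in mouse dorsal root ganglia, which hold the cell bodies of sensory neurons beside the spinal cord. They were chosen by gene symbol in the platform annotation, which names 19324 genes. The 9 genes have 15 of the 45037 probe sets on the array besides controls. 4 of the 15 carried several symbols and report on globin genes together. Total RNA from freshly dissected ganglia was hybridised to 4 Affymetrix mouse arrays, 2 of ganglia from the sample-2 level and 2 of ganglia from the sample-1 level. The labels do not name the levels, and give no strain, age, sex or treatment beyond the dissection. Whether both arrays of a level stand for different animals is not stated, so the p-values rest on a spread that may be only technical. Whether blood was flushed from the tissue is not given in the sources used here.

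Haemoglobin of adult red cells is a tetramer of alpha and beta globin chains, each holding a heme group that binds oxygen. Its genes are transcribed in nucleated erythroid precursors of the bone marrow and spleen, and reticulocytes and young red cells in the blood still carry the mRNA after the nucleus is lost. Alas2 encodes the erythroid form of the enzyme that starts heme synthesis, and Slc4a1 encodes band 3, the chloride and bicarbonate exchanger that also anchors the red cell membrane to its skeleton. Bpgm encodes the enzyme that makes 2,3-bisphosphoglycerate, which lowers the oxygen affinity of haemoglobin, and other tissues transcribe it too. Strains of mice differ at the beta-globin locus, where some carry the gene pair Hbb-b1 and Hbb-b2 and others, C57BL/6 among them, carry Hbb-bs and Hbb-bt.

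In these ganglia 2 red cell probe sets rose at the sample-2 level, 1 of Slc4a1 and 1 shared by Hba-a1 and Hba-a2, with means 2.29 and 1.95 times those at the sample-1 level. Neither call held under every alternative setting of the test, as the closing section describes. Alas2 and a further Slc4a1 probe set were also higher on both sample-2 arrays, with ratios of 1.65 and 1.89, and did not pass the test. The 3 brightest globin probe sets were higher by 1.12 to 1.24 times and did not pass. The probe sets of Bpgm overlapped between the levels.

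The start regions of the globin genes and Alas2 are shown because they share motifs of erythroid genes, and because those of Hba-a1 and Hba-a2 are near copies. The windows below run from 250 bases before to 50 bases after each transcription start and come from RefSeq (build GRCm38.p6), whose promoter table held 6 of the 9 genes. Capitals mark GATAA, the core bound by GATA1, CACCC, the box bound by KLF1, CCAAT, and ATATAA, a form of the TATA box, each on either strand. Hba-a1 lies at chr11:32283422-32283721 on the plus strand, Hbb-bs at chr7:103827879-103828178 and Hbb-bt at chr7:103813874-103814173 on the minus strand, and Alas2 at chrX:150547167-150547466 on the plus strand.
Hba-a1: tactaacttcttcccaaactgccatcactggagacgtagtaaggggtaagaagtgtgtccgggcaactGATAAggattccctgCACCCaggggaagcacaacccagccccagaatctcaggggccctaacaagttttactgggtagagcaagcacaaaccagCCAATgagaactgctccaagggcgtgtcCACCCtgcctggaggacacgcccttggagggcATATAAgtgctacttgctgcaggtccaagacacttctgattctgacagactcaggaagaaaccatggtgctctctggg
Hbb-bs: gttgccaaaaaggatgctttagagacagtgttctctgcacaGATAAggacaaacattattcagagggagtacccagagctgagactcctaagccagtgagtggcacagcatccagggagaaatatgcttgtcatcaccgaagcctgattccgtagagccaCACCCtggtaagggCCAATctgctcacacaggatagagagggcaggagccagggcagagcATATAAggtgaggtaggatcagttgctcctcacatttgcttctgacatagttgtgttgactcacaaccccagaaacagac
Hbb-bt: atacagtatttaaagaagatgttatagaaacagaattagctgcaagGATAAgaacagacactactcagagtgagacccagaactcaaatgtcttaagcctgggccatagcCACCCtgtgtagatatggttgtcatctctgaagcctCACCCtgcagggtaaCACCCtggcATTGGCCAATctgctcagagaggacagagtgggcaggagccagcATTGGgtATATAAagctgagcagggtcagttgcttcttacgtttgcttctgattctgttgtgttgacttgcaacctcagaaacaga
Alas2: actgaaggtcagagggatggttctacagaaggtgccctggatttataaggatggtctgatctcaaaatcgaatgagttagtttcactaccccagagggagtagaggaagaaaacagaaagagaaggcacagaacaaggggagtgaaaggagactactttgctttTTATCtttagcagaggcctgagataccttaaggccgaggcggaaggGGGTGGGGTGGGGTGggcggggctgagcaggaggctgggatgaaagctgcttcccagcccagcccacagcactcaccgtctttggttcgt

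The window of Hba-a2, at chr11:32296242-32296541 on the plus strand, was identical to that of Hba-a1 over the 297 bases that the windows share. GATAA or its complement was found in 5 of the 6 windows, those of all the globin genes and of Alas2, and in 25.4% of the 32851 windows of the table. CACCC was found in the same 5, and in 57.5% of all windows. CCAAT was found in 5 of the 6, those of the globin genes and of Bpgm, against 37.4% of all. ATATAA was found in 4, those of the globin genes, against 9.82% of all. In Alas2 the 3 CACCC matches lie end to end on the opposite strand, from 40 bases before the start. The window of Bpgm held 3 CCAAT matches and none of the other motifs. In the 6 windows 0 matches overlapped another. A match is a description of the letters and was not tested against binding.

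Values are the deposited intensities, on a linear scale. Brightness also depends on the probes, so a rank or a sum of intensities describes signal on the array and not the amount of a transcript relative to another. The median intensity of the arrays lay between 25.9 and 27.3. Of the 15 red cell probe sets 12 passed a filter that removed the dimmer 40 percent of probe sets, which corresponds to an intensity of 14.3. Tests used limma on log2(intensity + 16), with the sample-1 mean subtracted from the sample-2 mean and Benjamini-Hochberg adjustment over all 27022 probe sets tested. The threshold was an adjusted p of 0.05. Of the 12 red cell probe sets 2 passed, both higher, while over all tested probe sets 0.622% passed, 0.222% higher and 0.4% lower. At an unadjusted p under 0.05, 7 of the 12 were higher and 0 lower, against 5.33% higher and 5.53% lower of all tested. Sensory neuron markers had signal on every array. Uchl1, a deubiquitinase abundant in neurons, measured 7264 and 6731 on the sample-2 arrays and 6860 and 7056 on the sample-1 arrays. Prph, the peripheral neuron filament protein peripherin, measured 6236 and 5829 on the sample-2 arrays and 5658 and 5712 on the sample-1 arrays.

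**Figure D1:**
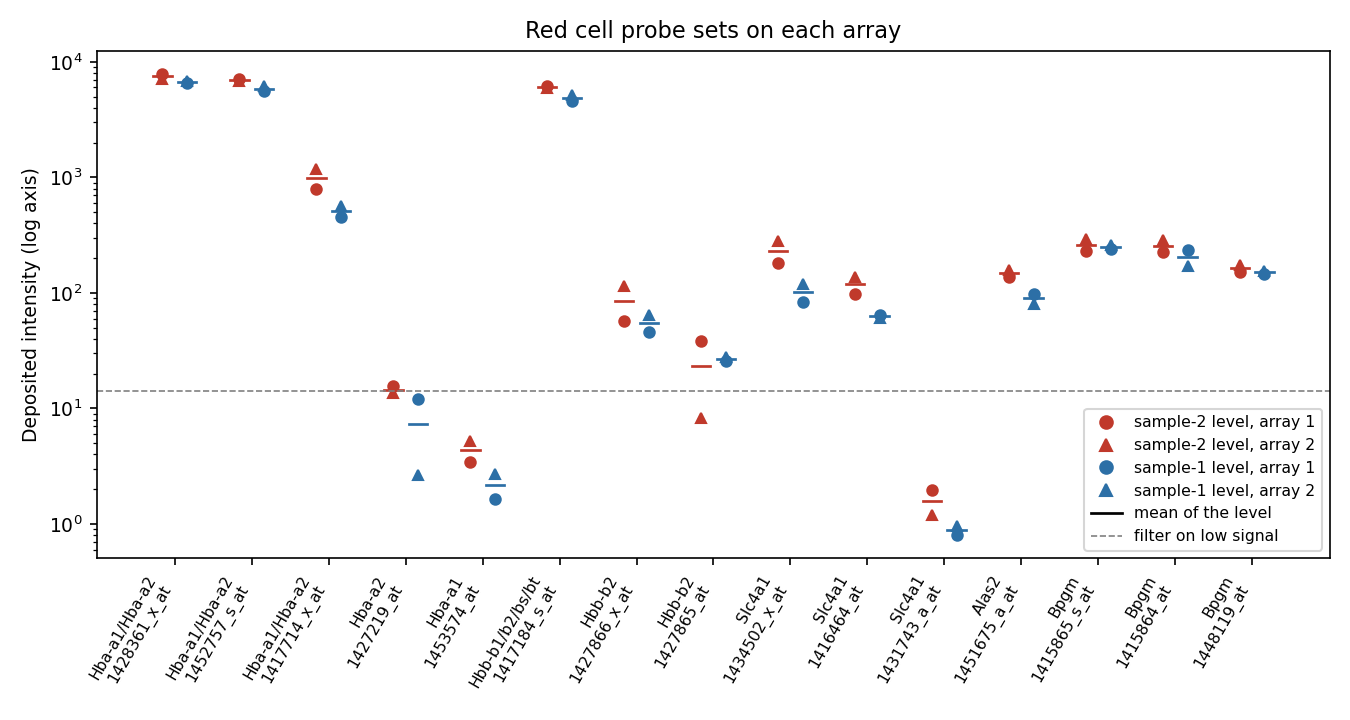
Deposited intensity (log axis) of the 15 red cell probe sets on each array, sample-2 level in red to the left of sample-1 level in blue, with circles for array 1, triangles for array 2, short bars for the mean of the level (n = 2) and a dashed line at the filter on low signal (14.3). The 3 brightest globin probe sets lie between 4601 and 7870.2 on every array, and 3 probe sets have a mean below the dashed line.

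The alpha-globin chains are encoded by Hba-a1 and Hba-a2, whose 3 shared probe sets had signal on every array. The brightest of them, 1428361_x_at, ranked 33 of 45037 probe sets by mean and measured 7870.2 and 7089 on the sample-2 arrays, against 6609 and 6799 on the sample-1 arrays. Both sample-2 arrays lay above both sample-1 arrays, the closest of them by less than the gap between the sample-2 arrays, and the difference of 0.16 ± 0.06 (log2 difference ± SE, n = 2 per level) did not pass with limma (adjusted p = 0.394). The second, 1452757_s_at, ranked 60 and measured 7138 and 6810.1 on the sample-2 arrays, against 5592 and 6152 on the sample-1 arrays. Here too the levels did not overlap, with a difference of 0.25 ± 0.06 (limma, adjusted p = 0.131) and a 95% interval of 0.11 to 0.39.

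The third shared alpha-globin probe set, 1417714_x_at, measured 799 and 1176 on the sample-2 arrays, against 454 and 559 on the sample-1 arrays. Sample-2 array 2 stood highest and sample-1 array 1 lowest, and the levels did not overlap. The means were 987 ± 266 at the sample-2 level and 507 ± 74.8 at the sample-1 level (SD, n = 2 each), and the probe set rose by 0.92 ± 0.15 (limma, adjusted p = 0.0238), which ranked 62 from the highest of the 27022 differences. With 1 array left out in turn the difference ranged from 0.65 to 1.20, and the adjusted p was above 0.05 without sample-1 array 1 (0.0806) and without sample-2 array 2 (0.0702). Whether it differed more than the brighter alpha-globin probe sets was not tested, and its suffix marks probes that can match further transcripts.

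The probe sets given to a single alpha-globin gene were dim and were not tested. That of Hba-a2, 1427219_at, measured 15.5 and 13.5 on the sample-2 arrays, against 12.1 and 2.66 on the sample-1 arrays. That of Hba-a1, 1453574_at, measured 3.46 and 5.23 on the sample-2 arrays, against 1.64 and 2.68 on the sample-1 arrays. Both sample-2 arrays were higher in each, at intensities under or close to the filter, so the alpha-globin genes could not be told apart.

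The beta-globin chain was measured by 1 probe set that carries the symbols Hbb-b1, Hbb-b2, Hbb-bs and Hbb-bt. This probe set, 1417184_s_at, ranked 122 by mean and measured 6145 and 5895 on the sample-2 arrays, against 4601 and 5111 on the sample-1 arrays. The levels did not overlap, and the gap between them was wider than the spread within either. The difference of 0.31 ± 0.07 had a 95% interval of 0.16 to 0.46 and missed the threshold (limma, adjusted p = 0.0712). It was between 0.24 and 0.39 with each array left out, and no such fit passed (lowest adjusted p 0.0833).

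Hbb-b2 had 2 probe sets of its own. Probe set 1427866_x_at measured 57.1 and 114 on the sample-2 arrays, against 46.0 and 63.8 on the sample-1 arrays. The levels overlapped, since sample-2 array 1 lay below sample-1 array 2, and the difference of 0.47 ± 0.25 did not pass (limma, adjusted p = 0.532). Probe set 1427865_at measured 38.2 and 8.25 on the sample-2 arrays, against 25.8 and 28.0 on the sample-1 arrays. Its sample-2 arrays lay on either side of both sample-1 arrays, and its 95% interval ran from -0.97 to 0.49. Which beta-globin gene pair the mice carried is not settled by these values.

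Slc4a1, which encodes band 3, rose by 1 of its 3 probe sets. On 1434502_x_at it measured 182 and 282 on the sample-2 arrays, against 83.4 and 119 on the sample-1 arrays. Sample-2 array 2 was the highest and sample-1 array 1 the lowest, with no overlap, and the difference was 1.07 ± 0.20 (limma, adjusted p = 0.0363). It ranked 35 from the highest of all tested differences. Leaving out single arrays gave differences between 0.78 and 1.36, and the adjusted p was above 0.05 without sample-1 array 1 (0.112) and without sample-2 array 2 (0.173). Centring each array on its median gave an adjusted p of 0.0571. With no filter on low signal the call was also lost for Slc4a1 (limma, adjusted p = 0.387) and the alpha-globin probe set (0.363), as it was with no intensity trend in the fit (0.445 and 0.456).

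The probe set of Slc4a1 without a cross-matching suffix, 1416464_at, measured 98.7 and 138 on the sample-2 arrays, against 64.8 and 60.3 on the sample-1 arrays. The sample-1 arrays were close together and both sample-2 arrays lay above them. The difference was 0.76 ± 0.17 with a 95% interval of 0.38 to 1.14, and it did not pass (limma, adjusted p = 0.0848), although it did without sample-2 array 1 (0.97, adjusted p = 0.0426). The remaining probe set, 1431743_a_at, was not tested. It measured 1.95 and 1.18 on the sample-2 arrays, against 0.798 and 0.966 on the sample-1 arrays, among the dimmest on the array.

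Alas2, the erythroid aminolevulinate synthase, has 1 probe set, 1451675_a_at. It measured 136 and 159 on the sample-2 arrays, against 98.5 and 80.4 on the sample-1 arrays. The levels did not overlap, and the difference of 0.64 ± 0.15 with a 95% interval of 0.30 to 0.97 did not pass (limma, adjusted p = 0.1001). Fits with 1 array left out gave differences of 0.51 to 0.76 and adjusted p from 0.109 to 0.381. In a bulk sample, fewer cells of a type and less RNA per cell cannot be told apart, here and in the results above.

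Bpgm, the bisphosphoglycerate mutase gene, overlapped between levels on all 3 of its probe sets. Probe set 1415864_at measured 224 and 289.5 on the sample-2 arrays, against 237 and 171 on the sample-1 arrays. Sample-1 array 1 lay above sample-2 array 1, and the difference of 0.31 had a 95% interval of -0.04 to 0.67 (limma, adjusted p = 0.523). Probe set 1415865_s_at measured 231 and 290.4 on the sample-2 arrays, against 241 and 259 on the sample-1 arrays, with an interval of -0.23 to 0.33. Probe set 1448119_at measured 153 and 174 on the sample-2 arrays, against 147 and 155 on the sample-1 arrays, with an interval of -0.19 to 0.38. In all 3 sample-2 array 2 was the highest array.

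**Figure D2:**
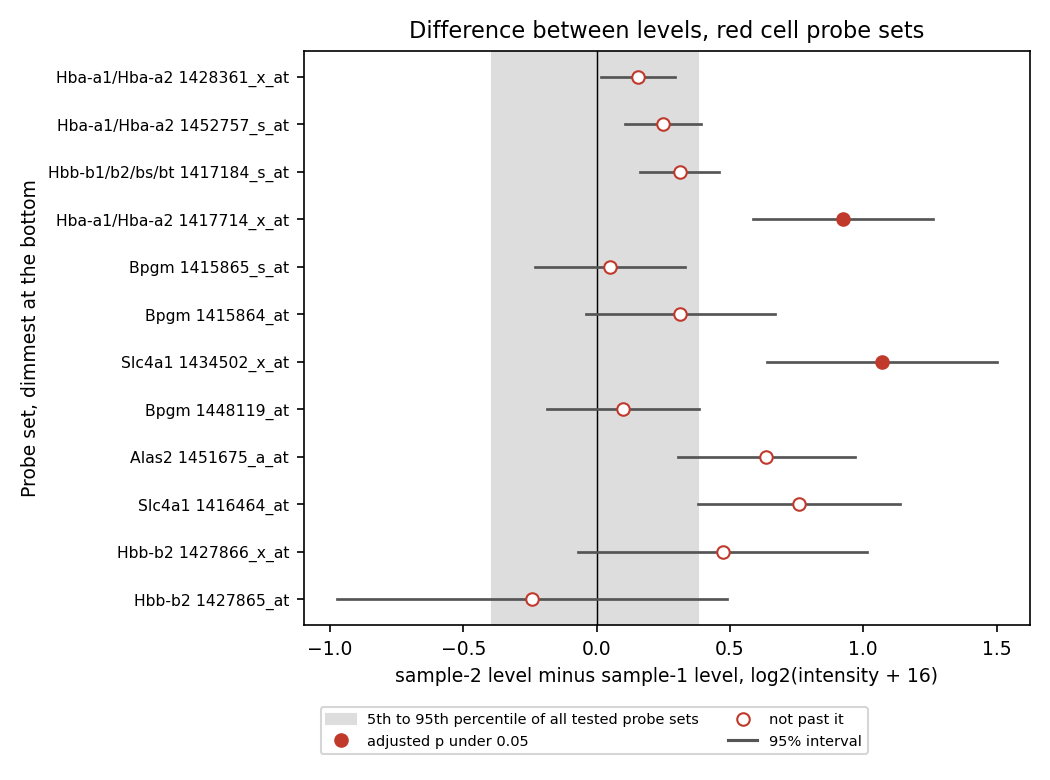
Difference between levels (sample-2 level minus sample-1 level, log2(intensity + 16), x axis) for the 12 tested red cell probe sets, dimmest by sample-2 mean at the bottom, with 95% intervals from limma (n = 2 arrays per level), filled points past an adjusted p of 0.05 and a grey band from the 5th to the 95th percentile of all 27022 tested probe sets. The filled points of Slc4a1 (1.07) and of Hba-a1 and Hba-a2 (0.92) lie outside the band, from -0.39 to 0.38, while the 3 brightest globin probe sets lie inside it.

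Taken as a group, 11 of the 12 tested red cell probe sets had a difference above 0, as had 51.1% of all tested probe sets. Both sample-2 arrays lay above both sample-1 arrays in 7 of the 12, with the reverse in 0, while over all tested probe sets 21.1% were higher and 20.1% lower in that way. Without the filter, 10 of all 15 red cell probe sets were so ordered and 0 the other way, against 19.9% higher and 18.1% lower of all 45037. The 12 tested probe sets are not independent, since 6 of them report on adult globins and share sequence. Their median difference was 0.31, against 0.00458 over all tested probe sets. The order of the sample-2 arrays was not the same among the 7. The 3 brightest globin probe sets were highest on sample-2 array 1, and the third alpha-globin probe set, both tested Slc4a1 probe sets and Alas2 were highest on sample-2 array 2.

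No other erythroid gene on the lists passed the test. Of 73 genes listed for heme synthesis and iron supply, the red cell membrane, erythroid transcription factors, late erythroid cells and other globins, 60 had a probe set of their own and 53 were tested, each by its brightest probe set. With limma 0 passed in either direction, against 0.622% of all tested probe sets, and at an unadjusted p under 0.05 there were 7 higher and 2 lower of the 53, against 5.33% higher and 5.53% lower of all tested. The 7 higher genes include Rhag and Rhd, which passed the filter only through the sample-2 arrays. The median difference of the 53 was 0.02, with 27 of 53 above 0. Both sample-2 arrays were higher in 13 of the 53 and lower in 7, against 21.1% higher and 20.1% lower of all tested probe sets.

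Slc25a37, mitoferrin, which brings iron into mitochondria for heme, came closest. It measured 155 and 162 on the sample-2 arrays, against 85.0 and 98.0 on the sample-1 arrays, and its difference of 0.70 ± 0.14 narrowly missed (limma, adjusted p = 0.0524). Among the other 12 tested genes of heme synthesis and iron supply, Cpox, coproporphyrinogen oxidase, measured 136 and 158 on the sample-2 arrays against 128 and 82.3 on the sample-1 arrays. Alad, the enzyme of the second step of heme synthesis, measured 137 and 126 on the sample-2 arrays against 184 and 196 on the sample-1 arrays, the opposite order to Alas2. Cpox and Alad did not pass, and the median of the 13 was -0.02.

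Of 14 tested genes of the red cell membrane and skeleton 0 passed with limma. At an unadjusted p under 0.05, 3 were higher, against 5.33% of all tested probe sets. The 3 include Rhag and Rhd, which passed the filter only through the sample-2 arrays, though Rhd was above it on sample-1 array 1 (27.3). Rhd, of the Rhesus protein family, measured 44.8 and 56.2 on the sample-2 arrays, against 27.3 and 4.46 on the sample-1 arrays (difference 1.16, limma adjusted p = 0.156). Its difference ran from 0.62 to 1.70 with single arrays left out, and it passed without sample-1 array 1 (limma, adjusted p = 0.0180). Rhag, its partner in the Rhesus complex, measured 25.0 and 36.4 on the sample-2 arrays, against 7.11 and 9.37 on the sample-1 arrays (difference 0.94, limma adjusted p = 0.171). Both genes were dim, and their fitted differences depend on the pseudocount. Aqp1, a water channel of red cells that other cells also make, measured 1911 and 1969 on the sample-2 arrays against 1535 and 1738 on the sample-1 arrays. The median of the 14 was -0.03.

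Of 8 genes for erythroid transcription factors and the erythropoietin receptor, 0 were past an adjusted or an unadjusted p of 0.05 with limma. Gata1, the master factor of erythroid genes, measured 26.2 and 27.8 on the sample-2 arrays, against 12.6 and 18.6 on the sample-1 arrays (difference 0.45, limma adjusted p = 0.557). Gfi1b, a transcriptional repressor that acts in the erythroid lineage, measured 4.41 and 23.2 on the sample-2 arrays and 28.5 and 22.2 on the sample-1 arrays. Epor, the receptor gene, measured 19.2 and 18.9 on the sample-2 arrays and 4.74 and 26.2 on the sample-1 arrays, and both genes overlapped between levels.

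Of 15 tested late erythroid and reticulocyte genes 0 passed with limma. At an unadjusted p under 0.05, 2 of the 15 were higher, against 5.33% of all tested probe sets. Isg20, an exonuclease, measured 89.2 and 107 on the sample-2 arrays, against 59.3 and 57.2 on the sample-1 arrays (difference 0.61, limma adjusted p = 0.141). Hemgn, the erythroid nuclear protein hemogen, measured 32.2 and 69.4 on the sample-2 arrays, against 22.9 and 30.4 on the sample-1 arrays (difference 0.59, limma adjusted p = 0.453). Both had sample-2 array 2 highest, as Slc4a1 and Alas2 did. Car1, the red cell carbonic anhydrase, overlapped between levels at 14.7 and 39.8 on the sample-2 arrays and 4.62 and 26.9 on the sample-1 arrays.

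The embryonic globin genes Hba-x, Hbb-y and Hbb-bh1 were below the filter and not tested. Their brightest probe sets reached at most 14.6, and Hba-x measured 1.40 and 4.38 on the sample-2 arrays and 1.22 and 9.74 on the sample-1 arrays. Mb, the oxygen store myoglobin of muscle, measured 57.1 and 36.1 on the sample-2 arrays, against 86.8 and 285 on the sample-1 arrays (difference -1.51, limma adjusted p = 0.108). Its difference ran from -2.29 to -0.74 with single arrays left out, and it passed without sample-1 array 1 (limma, adjusted p = 0.000167). Its high array, sample-1 array 2, was also the one with the highest summed skeletal muscle markers. Ngb and Cygb, the neuronal and the widely made globins, overlapped between levels.

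**Figure D3:**
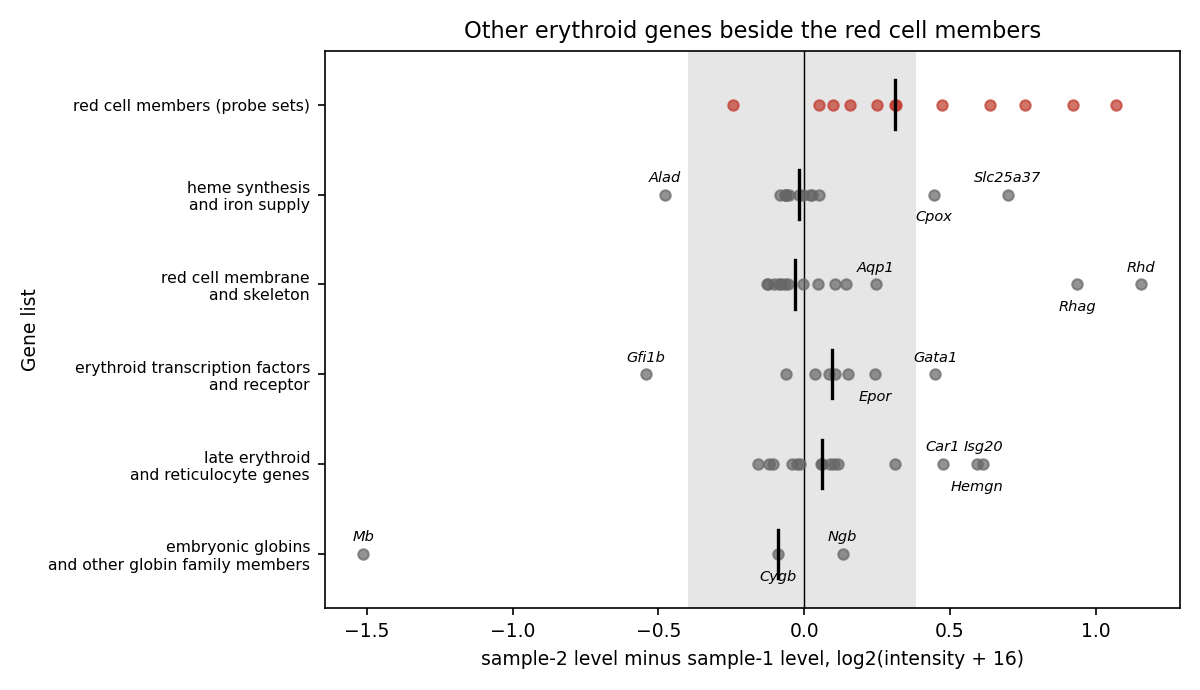
Difference between levels (x axis, log2(intensity + 16), sample-2 level minus sample-1 level) for the 12 red cell probe sets in red and for 53 other erythroid genes in grey by list, with vertical bars at each median and a grey band from the 5th to the 95th percentile of all tested probe sets. The red cell probe sets have a median of 0.31, and the medians of the other lists lie between -0.09 and 0.10.

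Markers of neutrophils, which share blood and marrow with red cells, were higher at the sample-2 level. Of 14 listed genes 11 were tested, 7 rose and 0 fell, against 0.222% higher and 0.4% lower of all tested probe sets. All 11 lay above 0, as did 51.1% of all tested, and their median difference was 1.01. The 11 include Padi4 (11.6 and 15.4 on the sample-1 arrays) and Csf3r (26.6 and 5.27), which are not among the 7. Both passed the filter only through the sample-2 arrays. The summed intensity of the neutrophil list was 6956 and 8692 on the sample-2 arrays, against 3439 and 4088 on the sample-1 arrays. The third alpha-globin probe set and 1434502_x_at of Slc4a1 had the same order of the 4 arrays. The other tested red cell probe sets had other orders. Ngp, a neutrophil granule protein, measured 1056 and 1396 on the sample-2 arrays against 557 and 637 on the sample-1 arrays (limma, adjusted p = 0.00432), and Ltf, lactoferrin, rose by 0.77 (limma, adjusted p = 0.0172). The part of blood or marrow content in the red cell result was not tested.

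The other lists of blood, marrow and dividing cells had 0 genes past the threshold by the brightest probe set of each gene, which was used for all marker lists. Over all tested probe sets 0.622% passed, and 5.33% were higher at an unadjusted p under 0.05 with limma. A difference above 0 was found in 51.1%. Of 9 tested genes of granulocyte precursors 0 passed with limma and 2 were higher at an unadjusted p under 0.05. The 2 include Myb, at 9.86 and 11.3 on the sample-1 arrays, which passed the filter only through the sample-2 arrays. The granulocyte precursor list summed to 982 and 1102 on the sample-2 arrays and 863 and 866 on the sample-1 arrays. Of 6 tested platelet and megakaryocyte genes 0 passed with limma and 1 was higher at an unadjusted p under 0.05. The chemokine gene Ppbp measured 84.7 and 156 on the sample-2 arrays against 52.6 and 39.6 on the sample-1 arrays (adjusted p = 0.0662). The platelet list summed to 539.8 and 684 on the sample-2 arrays and 467 and 478 on the sample-1 arrays. Of 8 tested B cell genes 0 passed with limma and 1 was higher at an unadjusted p under 0.05, and most of their sum came from Ebf1, of which 1 other probe set did pass. Of 7 T cell genes with a probe set 6 were below the filter, among them Cd3e and Cd4. Of 7 tested proliferation genes 0 passed with limma and 1, Rrm2, was higher at an unadjusted p under 0.05, at 72.1 and 87.5 on the sample-2 arrays against 30.5 and 42.1 on the sample-1 arrays, while 4 of the 7 had a difference above 0 and the lowest was -0.40, for Plk1.

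Markers of solid tissue did not share that order of arrays. Over all tested probe sets 5.33% were higher and 5.53% lower at an unadjusted p under 0.05 with limma. Past the threshold 0.222% were higher and 0.4% lower. Macrophage markers summed to 947 and 918 on the sample-2 arrays, against 1161 and 1234 on the sample-1 arrays, with 0 of 10 past the threshold with limma and 5 lower at an unadjusted p under 0.05. Endothelial markers summed to 1011 and 854 on the sample-2 arrays, against 1035 and 998 on the sample-1 arrays, with 0 of 10 past with limma and 1 lower at an unadjusted p under 0.05. Skeletal muscle markers summed to 1677 and 1129 on the sample-2 arrays, against 1372 and 7089 on the sample-1 arrays, with 1 of 10, Myh2, lower past the threshold. Myh2 measured 2.16 and 11.7 on the sample-2 arrays, against 42.8 and 120 on the sample-1 arrays. It passed the filter only through the sample-1 arrays. Without sample-1 array 2 the differences were 1.29 for Slc4a1 (limma, adjusted p = 0.0170) and 1.07 for the alpha-globin probe set (limma, adjusted p = 0.0134), while both calls were lost without sample-1 array 1 or without sample-2 array 2. Sensory neuron markers summed to 48046 and 44030.2 on the sample-2 arrays, against 44802 and 45929 on the sample-1 arrays. Of their 11 tested genes 0 passed with limma, and at an unadjusted p under 0.05 there were 2 higher and 1 lower. Among these, named after their values were seen, Scn9a, a sodium channel gene, had a difference of 0.38 (limma, adjusted p = 0.116) and 1 other probe set past the threshold, and Nefh, a neurofilament gene, one of -0.22 (limma, adjusted p = 0.302).

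**Figure D4:**
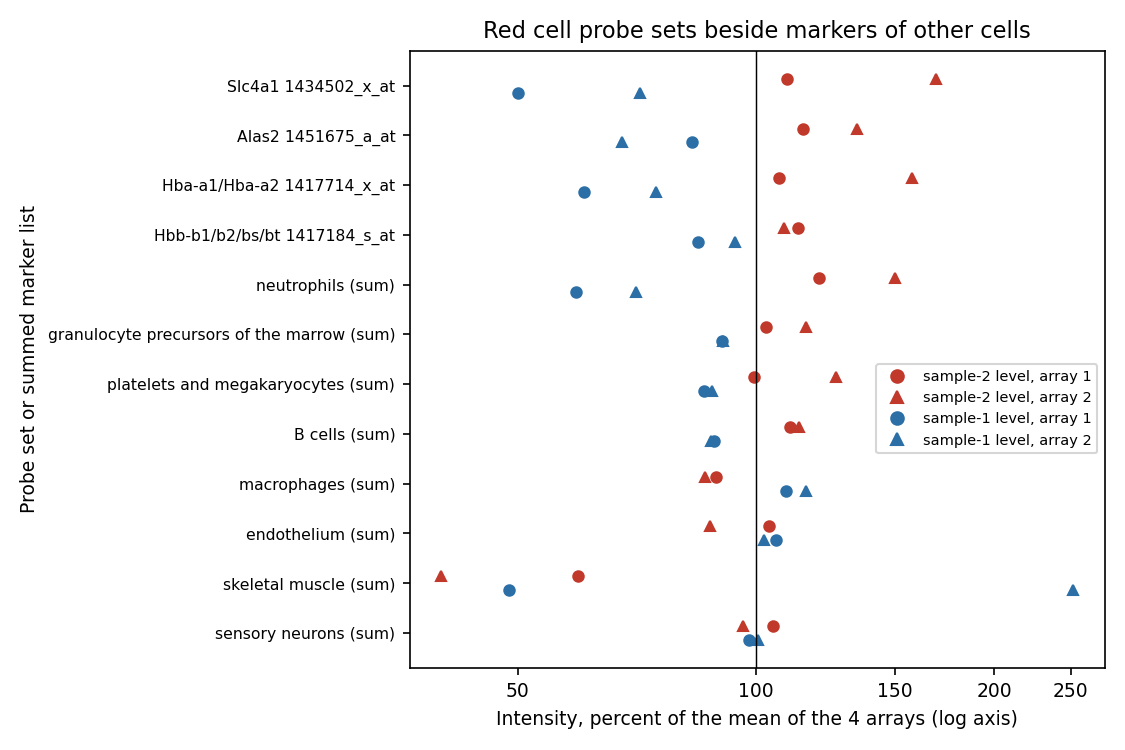
Intensity of 4 red cell probe sets and summed intensity of 8 marker lists on each array, as percent of the mean of the 4 arrays (log axis), sample-2 level in red above sample-1 level in blue, with circles for array 1 and triangles for array 2. Slc4a1 and the alpha-globin genes are shown by their probe set with the lowest adjusted p. Neutrophil markers stand at 120.1 and 150.03 percent on the sample-2 arrays and at 59.4 and 70.6 percent on the sample-1 arrays. Probe set 1434502_x_at of Slc4a1 stands at 109.5 and 169 percent and at 50.1 and 71.4 percent.

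Likeness was measured as the root mean square distance over the 4 arrays between log2 profiles centred on their own means. In all 24067 tested probe sets with 1 symbol were set against 2 red cell profiles. The profile of 3 probe sets of Slc4a1 and Alas2 stood at 0.21 and 0.61 on the sample-2 arrays and at -0.43 and -0.39 on the sample-1 arrays. Only 10 probe sets lay within 0.1 of it, and the nearest 5 were Neurod1 (distance 0.01), Cdca3, a cell division gene (0.06), Mmp8 (0.07), Rhag (0.07) and Adm, the adrenomedullin gene (0.07). Mmp8, a neutrophil collagenase, measured 57.1 and 73.1 on the sample-2 arrays against 25.3 and 29.4 on the sample-1 arrays, and Rhag is described above. Neurod1 encodes a neuronal transcription factor, and its values of 19.1 and 31.2 on the sample-2 arrays and 6.76 and 7.75 on the sample-1 arrays passed the filter only through the sample-2 arrays.

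The profile of the 6 adult globin probe sets was flatter, at 0.16 and 0.15 on the sample-2 arrays and at -0.24 and -0.07 on the sample-1 arrays. This profile averages probe sets that differed on sample-2 array 2. There 1427865_at of Hbb-b2 stood at 32.9 percent of its mean over all arrays. On the same array 1417714_x_at of the alpha-globin genes stood at 157 percent and 1427866_x_at of Hbb-b2 at 163 percent. Within 0.1 of the averaged profile lay 1525 of the 24067 probe sets. The nearest were Tbx3, Tmem87b, Cpne8, Gabbr1 and Pex11g, at distances of 0.00562 to 0.0105. The count and these genes describe the average and not any single globin probe set. Likeness to single globin probe sets was not tested.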

How the data were processed

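RNA of 4 dorsal root ganglion samples was measured on Affymetrix mouse arrays. The deposited values are the authors' intensity per probe set, linear and scaled so that the mean of every array, without its highest and lowest 2 percent of values, was 150.0. Their software is not given in the sources used here, and no detection calls were used.

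Control probe sets (64) and those under the 40th percentile of mean log2(intensity + 16) were left out, leaving 27022. They were fitted with limma 3.58.1 in R 4.3.3 (lmFit, eBayes with an intensity trend, no covariate, 2 residual degrees of freedom). The method was tested on data simulated with variances drawn from this fit and independent arrays. That test cannot show whether the spread of the real arrays is only technical. The pseudocount shrinks differences of dim probe sets. The number of arrays limits the precision. Genes were named from the platform annotation, where 34945 probe sets had 1 symbol, 932 several and 9160 none. Shared globin probe sets are reported as shared, and other genes only by probe sets with 1 symbol. All member probe sets are named. Of each other erythroid list the genes past the threshold are named, or else the 3 with the largest difference, and of each marker list up to 2 genes. Members, lists and tests were chosen with earlier results of these data known. Alternatives are in the closing section.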

Additional observations from a re-analysis of the deposited data

How the results depend on the processing

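The count of red cell probe sets past the threshold, 2 of 12, stayed at 2 with pseudocounts of 1 and 64, with a filter at the 60th percentile and with quantile normalization, and each time these were the probe sets of Slc4a1 and of Hba-a1 and Hba-a2. It was 1 with each array centred on its median, 0 without the filter (6 at an unadjusted p under 0.05 with limma), 0 without the intensity trend (5), and 0 without the suffixes _x_at and _s_at (2), which removes both. Leaving out each array in turn gave 0 to 3. Over all probe sets the count was 168, against 104 with median centring, 4 without the filter, 1 without the trend, and 102 to 241 with an array left out. For the other erythroid genes it was 0, against 1 (Slc25a37) with a pseudocount of 64, with the 60th percentile filter, without the suffixes and when a gene's probe sets were averaged, and 0 to 2 with an array left out (Rhd and Mb without sample-1 array 1).

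The array number recurs at both levels, but nothing in the labels says that it pairs arrays, so the numbers are not taken as pairs. Deviations of same-numbered arrays correlated at 0.03 over the tested probe sets, which cannot exclude pairing that acts on some of them. With the replicate block 793 probe sets passed, 6 of the red cell probe sets and 4 of the other erythroid genes. With an array left out, signs turned for values that never passed: Bpgm 1415865_s_at (-0.10 to 0.21), Hbb-b2 1427865_at (-0.82 to 0.34), Car1 (-0.054 to 1.005), Epor (-0.27 to 0.25) and Cygb (-0.22 to 0.044). The cause of these shifts was not tested. With 1 array left at a level, that array is assumed to vary like the others.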
